A study of Homo sapiens with 9 samples.

Results

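The genes described here were 10 transcription factors that form or surround the AP-1 complex: the FOS family (FOS, FOSB, FOSL1, FOSL2), the JUN family (JUN, JUNB, JUND), and ATF3, EGR1 and MYC. They were chosen by name, as the rows of the count table that carry these symbols, out of 60649 genes listed. The choice was made with earlier results of these data known. All 10 were found and passed the filter on low counts, which left 14274 genes for testing. They were measured by RNA sequencing of MDA-MB-231, an established human triple-negative breast cancer line, in 9 libraries that formed 3 groups of 3 replicates. Control cells carried the lentiviral vector PLKO-GFP, which does not target AHR, and the others carried 1 of 2 short hairpin RNAs against AHR, the gene of the aryl hydrocarbon receptor, named shAHR#2 and shAHR#3 in the labels. All cells were grown in DMEM with 10% fetal bovine serum, and the label of every library gives proliferation as the treatment. No ligand or serum pulse is named for any library, so these are levels in growing cells and not after a stimulus. The methods describe pools of infected, selected cells rather than clones, and they number the hairpins differently from the labels, so the labels' numbers are kept.

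AP-1 is a dimer of basic leucine zipper (bZIP) proteins, in which a JUN protein pairs with another JUN, a FOS or an ATF protein and binds a short palindrome in promoters and enhancers. FOS, FOSB, EGR1 and ATF3 are classical immediate early genes, transcribed within minutes of growth factor or stress signals through MAP kinases, whereas FOSL1 (the protein Fra-1), FOSL2 (Fra-2) and JUND can be held at a steady level in proliferating cells. Fra-1 is well known as a prominent AP-1 subunit of mesenchymal triple-negative breast cancer cells. MYC is a basic helix-loop-helix factor that binds E-boxes with MAX and drives growth genes.

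Total counts ranged from 15991396 to 20374460 per library. Both hairpins lowered their target: AHR stood at 35.3% ± 0.912 of its control mean in the shAHR#2 libraries and at 40.5% ± 3.39 in the shAHR#3 libraries (SD, n = 3). Of the genes tested, 65.8% passed an adjusted p of 0.05 (edgeR's quasi-likelihood test, Benjamini-Hochberg adjustment over all genes tested) with shAHR#2 and 54.4% with shAHR#3, against which every count of genes here must be read. The labels do not say that replicates were separate cultures, so p-values measure only the spread between these libraries, which may be technical. The line's markers VIM, CD44, AXL and KRT18 were abundant, at a summed 4926 to 6366 CPM (counts normalised to library size with TMM scaling). The 4 luminal markers summed to 10.2 to 12.4 CPM over all libraries, mostly GATA3, with PGR at 0, ESR1 at 0 to 4 counts and FOXA1 at 0 in the control and 17 to 27 counts with the hairpins. The 4 immune markers summed to 1.02 to 1.16 CPM in the control and 1.14 to 2.20 with the hairpins, with CD3E at 0 and PTPRC at 1 to 4 counts in the control and 14 to 33 with the hairpins. CD14 went the other way, at 17 to 21 counts in the control, 4 to 8 with shAHR#2 and 9 to 16 with shAHR#3. The 3 endothelial markers summed to 2.15 to 2.71 CPM in the control and 10.4 to 13.3 CPM with the hairpins, nearly all from PECAM1. CDH5 was at 0 counts in the control, 0 to 2 with shAHR#2 and 1 to 12 with shAHR#3. VWF was at 0 counts in the control, 4 to 7 with shAHR#2 and 4 to 9 with shAHR#3. The part of these markers in the results was not tested.

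The promoters of 5 members are shown because their genes moved in different directions and because they hold the matches described next. Windows of 300 bases, from 250 before to 50 after the start site, were taken from RefSeq on GRCh38.p14 and were held for 8 of the 10 members. Capitals mark exact matches, on either strand, to the AP-1 site TGANTCA, the cyclic AMP response element (CRE) TGACGTCA, the CArG box bound by serum response factor, the core GCGTG of the AHR recognition site, and the E-box CACGTG. The windows lie at chr14:75278578-75278877 (plus strand) for FOS, chr1:58783998-58784297 (minus) for JUN, chr19:12791236-12791535 (plus) for JUNB, chr19:18281573-18281872 (minus) for JUND and chr5:138465229-138465528 (plus) for EGR1, each printed 5′ to 3′ along its gene.
FOS: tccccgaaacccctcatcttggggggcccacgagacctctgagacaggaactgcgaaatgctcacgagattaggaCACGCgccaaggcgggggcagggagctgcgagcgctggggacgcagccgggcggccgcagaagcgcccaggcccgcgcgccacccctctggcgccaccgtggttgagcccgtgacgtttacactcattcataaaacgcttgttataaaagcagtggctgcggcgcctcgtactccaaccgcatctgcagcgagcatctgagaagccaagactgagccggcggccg
JUN: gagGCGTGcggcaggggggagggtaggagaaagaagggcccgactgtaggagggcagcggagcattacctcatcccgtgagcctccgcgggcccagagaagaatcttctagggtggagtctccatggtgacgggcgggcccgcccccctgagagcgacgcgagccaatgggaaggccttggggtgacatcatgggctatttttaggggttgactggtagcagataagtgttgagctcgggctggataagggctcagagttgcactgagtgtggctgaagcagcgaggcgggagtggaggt
JUNB: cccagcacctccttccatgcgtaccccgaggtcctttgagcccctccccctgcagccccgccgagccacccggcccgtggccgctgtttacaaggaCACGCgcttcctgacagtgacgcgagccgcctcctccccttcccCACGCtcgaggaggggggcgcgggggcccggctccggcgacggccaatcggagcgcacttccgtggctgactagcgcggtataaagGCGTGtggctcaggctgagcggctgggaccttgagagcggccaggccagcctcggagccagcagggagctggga
JUND: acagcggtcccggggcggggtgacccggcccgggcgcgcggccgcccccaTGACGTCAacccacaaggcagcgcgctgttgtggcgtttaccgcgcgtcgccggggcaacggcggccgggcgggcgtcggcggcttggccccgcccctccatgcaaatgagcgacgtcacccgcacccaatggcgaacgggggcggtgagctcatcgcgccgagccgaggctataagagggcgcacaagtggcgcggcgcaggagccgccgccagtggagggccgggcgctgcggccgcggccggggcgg
EGR1: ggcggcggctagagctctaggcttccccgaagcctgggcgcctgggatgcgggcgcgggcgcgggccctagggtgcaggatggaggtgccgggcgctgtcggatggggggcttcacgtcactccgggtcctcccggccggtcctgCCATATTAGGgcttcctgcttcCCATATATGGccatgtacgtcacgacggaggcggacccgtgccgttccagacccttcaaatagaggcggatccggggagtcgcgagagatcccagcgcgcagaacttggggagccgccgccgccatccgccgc

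In these letters, EGR1 held 2 CArG boxes, from -105 to -96 and from -83 to -74 relative to the start. JUND held a CRE from -200 to -193, JUNB held 3 copies of GCGTG, and FOS and JUN held 1 copy each. Among the other windows, FOSB held 1 GCGTG and FOSL2 held an AP-1 site from +5 to +11. GCGTG was thus found in 4 of 8 members, against 36.5% of 35116 windows in the table. The AP-1 site was found in 1 of 8 (7.71% of all windows), the CRE in 1 of 8 (1.85%), the CArG box in 1 of 8 (1.29%) and the E-box in none (7.26%). A match describes the letters of the window and is not a measured binding site, and no match says only that these exact letters are not in the window.

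With shAHR#2, 9 of the 10 members passed the test, 6 higher and 3 lower than the control, where 65.8% of all tested genes passed (32.6% higher and 33.2% lower). With shAHR#3, 5 members passed, 4 higher and 1 lower, where the background was 54.4% (26.9% higher and 27.5% lower). The median log2 fold change over the members was 0.48 with shAHR#2 and 0.12 with shAHR#3, against medians near 0 (-0.00323 and -6.88e-05) over all genes tested. Their median absolute log2 fold change was 0.61 with shAHR#2, against 0.32 over all tested genes, and 0.22 with shAHR#3, against 0.23. Since the members were chosen with earlier results of these data known, the comparisons with all tested genes are descriptive only. The CPM ranges of hairpin and control libraries did not overlap for 9 members with shAHR#2 (68.2% of all tested genes) and for 7 with shAHR#3 (58.7%). FOSL2, JUNB and MYC rose with both hairpins. FOSL1 and EGR1 rose and JUND and ATF3 fell with shAHR#2, while their changes with shAHR#3 did not pass, and FOS and JUN moved in opposite directions with the 2 hairpins.

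**Figure D1:**
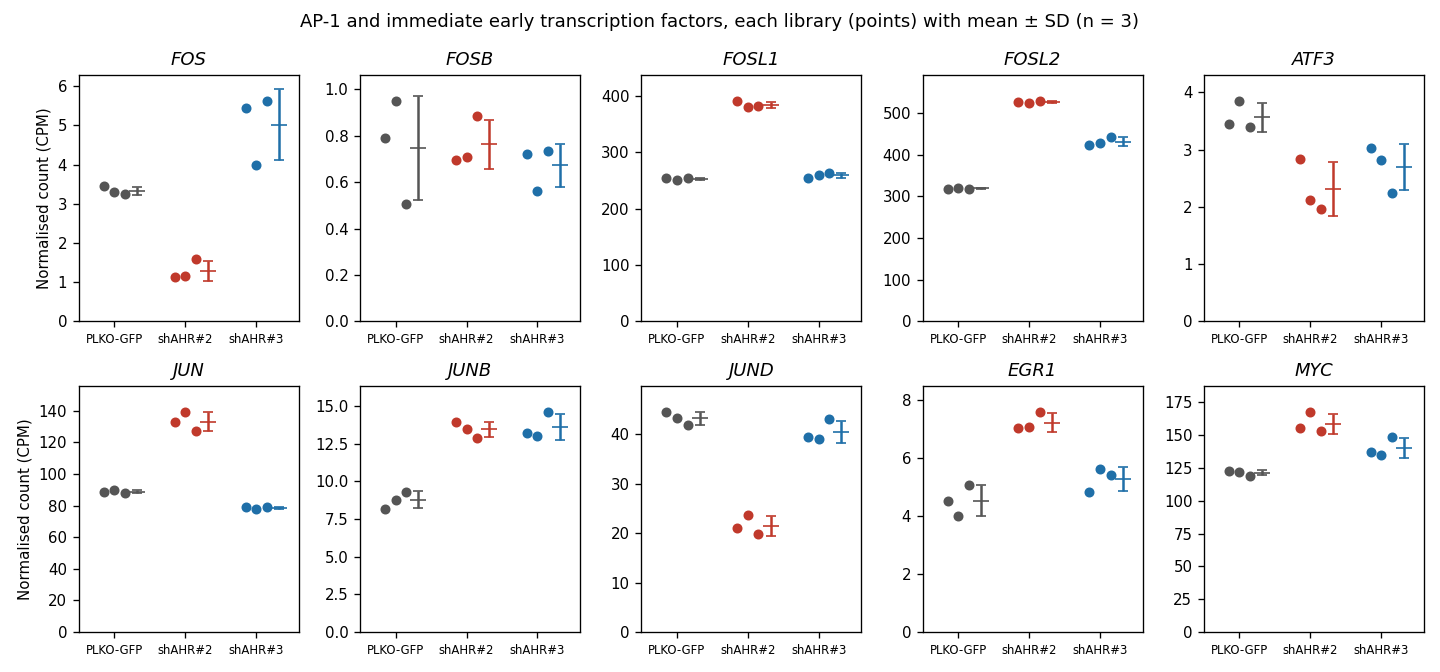
Normalised counts (CPM, vertical axes from 0) of the 10 members in each library, with replicates as points and the mean ± SD (n = 3) beside them for PLKO-GFP (grey), shAHR#2 (red) and shAHR#3 (blue). FOS falls from 3.33 to 1.29 CPM with shAHR#2 and rises to 5.02 with shAHR#3, JUND drops from 43.3 to 21.5 CPM in the red libraries, and JUNB rises from 8.76 to 13.4 (red) and 13.6 CPM (blue).

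Across genes, levels are compared per length, as CPM per kilobase of merged exons. FOSL1 was the most abundant member in the control, at 134 ± 1.11 CPM per kilobase (SD, n = 3), followed by FOSL2 at 44.6 ± 0.162, JUN at 24.5 ± 0.241, JUND at 22.4 ± 0.667 and MYC at 19.9 ± 0.336. JUNB stood lower at 4.79 ± 0.309, and EGR1 (1.44 ± 0.170), FOS (1.04 ± 0.0331), ATF3 (0.891 ± 0.0619) and FOSB (0.135 ± 0.0404) were lowest. No neighbours in this order overlapped between the control libraries. With shAHR#2, MYC stood above JUND, and ATF3 and FOS overlapped. With shAHR#3, MYC stood above JUN, and the pairs JUN and JUND, and EGR1 and FOS, overlapped. The order depends on the gene length used: over the longest transcript in place of all exons, MYC ranked above JUN, and ATF3 and FOS above EGR1.

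FOSL1 (chromosome 11, 65892049 to 65900573, GRCh38 with GENCODE 44) encodes Fra-1. It was counted at 254, 250 and 254 CPM in the control, 390, 380 and 382 with shAHR#2, and 254, 259 and 263 with shAHR#3. The shAHR#2 libraries stood clear of all the others, while the shAHR#3 libraries lay just above the control range. The log2 fold change was 0.60 (standard error 0.03, edgeR adjusted p = 2.30e-21) with shAHR#2 and 0.04 (95% interval -0.02 to 0.09, adjusted p = 0.270) with shAHR#3, and the direct difference, shAHR#3 minus shAHR#2, was -0.57 (adjusted p = 7.13e-20). In RNA from bulk cells, a change in the share of cells that express a gene and a change in RNA per cell cannot be told apart.

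FOSL2 (chromosome 2, 28392448 to 28417317), which encodes Fra-2, rose with both hairpins. Its spread between libraries was 0.362% of the mean in the control and 0.439% with shAHR#2, the smallest of the 10 members in both groups. Its values were 318, 321 and 319 CPM in the control, 528, 525 and 529 with shAHR#2, and 424, 428 and 443 with shAHR#3. The 3 groups did not overlap, with shAHR#3 between the others. The log2 fold changes were 0.72 (standard error 0.03, edgeR adjusted p = 2.92e-24) and 0.44 (standard error 0.03, adjusted p = 4.41e-17), and shAHR#3 was lower than shAHR#2 by a log2 difference of -0.29 (adjusted p = 4.34e-12).

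FOS (chromosome 14, 75278826 to 75282230), the founding immediate early AP-1 gene, was low and moved oppositely with the 2 hairpins. It was at 3.44, 3.30 and 3.24 CPM in the control, 1.13, 1.16 and 1.58 with shAHR#2, and 5.45, 3.99 and 5.61 with shAHR#3. All shAHR#2 libraries lay below and all shAHR#3 libraries above the control. The values rest on 61 to 66, 18 to 25 and 78 to 115 counts. As a percentage of each group's mean, FOS had a spread of 3.17 (PLKO-GFP), 19.8 (shAHR#2) and 17.8 (shAHR#3). Whether these spreads differ was not tested, and 3 libraries per group at such low counts cannot decide it. The log2 fold change was -1.37 (standard error 0.22, edgeR adjusted p = 1.40e-06) with shAHR#2, the largest fall of any member. With shAHR#3 it was 0.60 (standard error 0.17, adjusted p = 0.00266). The mean of both hairpins gave -0.39 (adjusted p = 0.0428), a call that did not hold with DESeq2 (adjusted p = 0.0894), without the filter on low counts (0.0524) or without 1 library, namely any PLKO-GFP library, shAHR#2 replicate 1 or 2, or shAHR#3 replicate 2 (0.0714 to 0.107), and that averages opposite movements.

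FOSB (chromosome 19, 45467995 to 45475179) was the rarest member, with 10 to 19 counts in every library. It was at 0.791, 0.949 and 0.506 CPM in the control, 0.697, 0.706 and 0.886 with shAHR#2, and 0.720, 0.563 and 0.732 with shAHR#3, so the groups overlapped throughout. The log2 fold changes of 0.02 (95% interval -0.73 to 0.78) and -0.15 (-0.90 to 0.59) did not pass, and the intervals span changes of the size seen in most other members. FOSB lies within ERCC1 on the other strand without shared exon bases.

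Summed over the family, FOS family mRNA was at 180 ± 0.938 CPM per kilobase (SD, n = 3) in control libraries, 278 ± 3.04 in shAHR#2 libraries and 199 ± 3.72 in shAHR#3 libraries. In the same order, FOSL1 made up 74.5% ± 0.232, 73.3% ± 0.267 and 68.9% ± 0.319 of this sum, and FOSL2 made up 24.8% ± 0.219, 26.5% ± 0.241 and 30.3% ± 0.188. FOS itself was 0.581%, 0.146% and 0.791% of the sum. The FOSL1 share ran from 74.3% to 74.7% in control libraries, from 73.1% to 73.6% in shAHR#2 libraries and from 68.6% to 69.2% in shAHR#3 libraries, without overlap. No test was run on shares.

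JUN (chromosome 1, 58776845 to 58784048), the central AP-1 subunit, rose with shAHR#2 and fell slightly with shAHR#3. It was at 88.4, 89.7 and 88.0 CPM in the control, 133, 139 and 127 with shAHR#2, and 78.8, 77.6 and 78.8 with shAHR#3. The 3 groups did not overlap. The log2 fold changes were 0.58 (standard error 0.04, edgeR adjusted p = 1.33e-16) and -0.18 (standard error 0.04, adjusted p = 1.45e-04), and the direct difference was -0.76 (standard error 0.04, adjusted p = 3.05e-19).

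JUNB (chromosome 19, 12791486 to 12793315), a JUN paralog that often restrains JUN's activity, rose with both hairpins. Its values were 8.19, 8.79 and 9.32 CPM in the control, 13.9, 13.5 and 12.9 with shAHR#2, and 13.2, 12.998 and 14.6 with shAHR#3. The hairpin groups overlapped each other and stood above the control. The log2 fold changes were 0.62 (standard error 0.10, edgeR adjusted p = 9.09e-07) and 0.63 (standard error 0.10, adjusted p = 5.24e-07), with a direct difference of 0.02 (95% interval -0.17 to 0.20, adjusted p = 0.904). JUNB lies inside HOOK2, which is read from the other strand, and 14.2% of its exon bases overlap HOOK2 exons. HOOK2 had 107 to 184 counts and also rose with both hairpins (log2 0.50 and 0.41), and whether counting used strand is not given in the sources used here, so reads may be shared between them.

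JUND (chromosome 19, 18279694 to 18281622), the JUN member often held steady in resting cells, fell with shAHR#2. It was at 44.5, 43.3 and 41.9 CPM in the control, 21.0, 23.7 and 19.7 with shAHR#2, and 39.4, 39.0 and 43.0 with shAHR#3. The shAHR#2 libraries were far below all others, and the shAHR#3 libraries overlapped the control. The log2 fold change was -1.01 (standard error 0.07, edgeR adjusted p = 3.91e-16) with shAHR#2 and -0.09 (95% interval -0.21 to 0.03, adjusted p = 0.177) with shAHR#3, and the direct difference was 0.92 (adjusted p = 2.72e-14).

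The summed JUN family level was 51.7 ± 0.504 CPM per kilobase (SD, n = 3) in control libraries, 55.2 ± 2.82 in shAHR#2 libraries and 50.04 ± 1.74 in shAHR#3 libraries. The shAHR#3 range overlapped the control, and the shAHR#2 range began just above it. In the same order, JUN was 47.4% ± 0.328, 66.5% ± 0.445 and 43.2% ± 1.25 of the sum. JUND was 43.4% ± 0.955, 20.1% ± 0.889 and 41.9% ± 0.836, and JUNB 9.27% ± 0.675, 13.3% ± 0.581 and 14.8% ± 0.424. By this length, JUN and JUND lay within a few points of each other in control and shAHR#3 libraries, and far apart in shAHR#2 libraries. Over the longest transcript, JUN and JUND made up 50.02% and 41.2% in the control. With shAHR#3 these shares were 45.9% and 39.96%, and with shAHR#2 they were 68.9% and 18.7%.

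**Figure D2:**
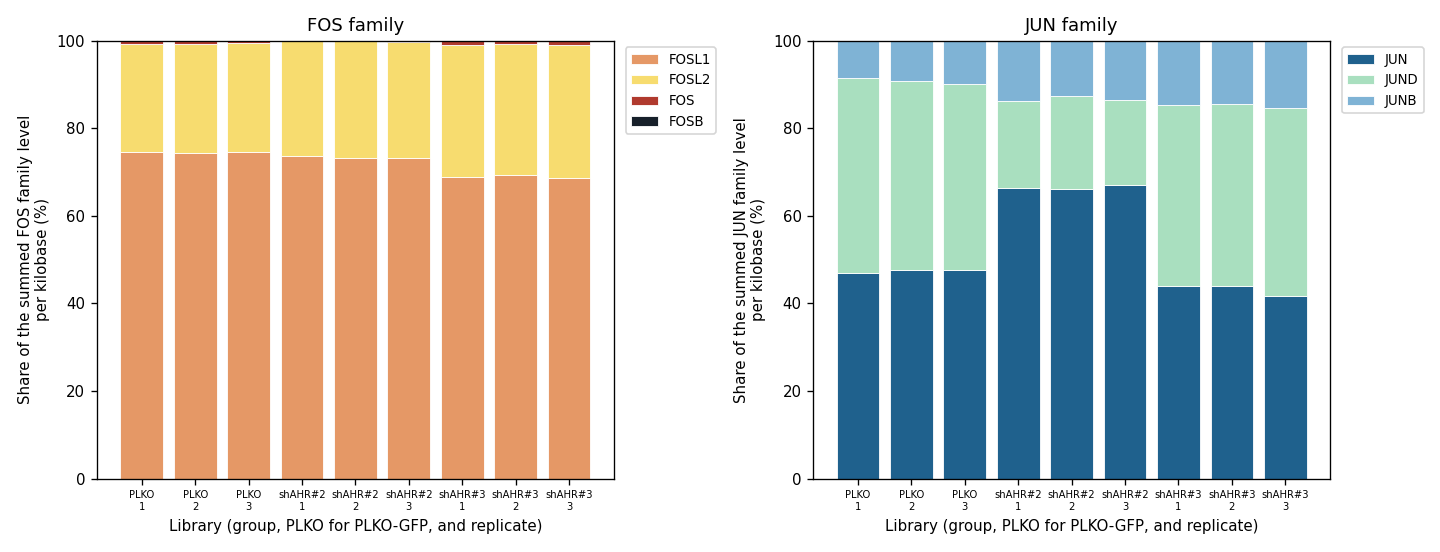
Share (%) of each FOS family member (left) and JUN family member (right) in the family's summed level per kilobase, one bar for each library. FOSL1 dominates every FOS bar at 68.6% to 74.7%, and JUN takes 66.1% to 67.0% of the JUN bar in the shAHR#2 libraries against 47.0% to 47.6% in the control.

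ATF3 (chromosome 1, 212565334 to 212620777), a stress-induced bZIP factor that pairs with JUN, was low and fell with shAHR#2. It was at 3.44, 3.85 and 3.39 CPM in the control, 2.84, 2.12 and 1.96 with shAHR#2, and 3.03, 2.81 and 2.25 with shAHR#3, on 31 to 77 counts. All hairpin libraries lay below all controls. The log2 fold change was -0.61 (standard error 0.20, edgeR adjusted p = 0.00674) with shAHR#2 and -0.40 (95% interval -0.78 to -0.03, adjusted p = 0.0643) with shAHR#3, where it did not pass, and the difference between hairpins was 0.21 (95% interval -0.21 to 0.62).

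EGR1 (chromosome 5, 138465479 to 138469303), a zinc-finger factor induced through serum response factor, rose with shAHR#2. It was at 4.52, 3.99 and 5.06 CPM in the control, 7.03, 7.06 and 7.59 with shAHR#2, and 4.84, 5.63 and 5.42 with shAHR#3, on 80 to 131 counts. The shAHR#2 libraries were above all others and the shAHR#3 libraries overlapped the control. The log2 fold change was 0.67 (standard error 0.14, edgeR adjusted p = 4.41e-05) with shAHR#2 and 0.23 (95% interval -0.05 to 0.51, adjusted p = 0.169) with shAHR#3, and the direct difference was -0.45 (adjusted p = 0.00547). On chromosome 5 the other 655 tested genes had a median log2 fold change of -0.48 with shAHR#2 and -0.26 with shAHR#3, with 84.3% and 79.7% of them below 0. EGR1 with shAHR#2 stood above 96.6% of these genes, so its rise went against the chromosome's median. Such shifts were not limited to chromosome 5. On chromosome 14, which holds FOS, the other 455 tested genes had medians of 0.23 with shAHR#2 and 0.14 with shAHR#3. Of these genes, 26.2% and 27.5% lay below 0. FOS stood above 1.54% of them with shAHR#2 and 89.0% with shAHR#3. The part of these shifts in the members' changes was not tested.

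MYC (chromosome 8, 127735434 to 127742951) rose with both hairpins by less than the other rising members. It was at 123, 122 and 119 CPM in the control, 155, 168 and 153 with shAHR#2, and 137, 135 and 149 with shAHR#3. The groups did not overlap. The log2 fold changes were 0.39 (standard error 0.04, edgeR adjusted p = 2.37e-11) and 0.21 (standard error 0.04, adjusted p = 1.37e-05), and shAHR#3 was below shAHR#2 by -0.18 (adjusted p = 1.43e-04). CASC11, which overlaps 3.18% of MYC's exon bases on the other strand, had at most 7 counts.

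Compared directly, shAHR#3 differed from shAHR#2 in 7 of the 10 members, 2 higher (FOS and JUND) and 5 lower (FOSL1, FOSL2, JUN, EGR1, MYC), where 42.3% of all tested genes passed (21.9% higher and 20.4% lower). The ranges did not overlap for 7 members (49.6% of all tested genes). This comparison shares its libraries with those against the control and is given beside them, not as a separate result. For the mean of both hairpins, 9 members passed, 6 higher and 3 lower, where 64.3% of tested genes did (31.5% higher and 32.9% lower). The ranges of all hairpin libraries and the control did not overlap for 5 members (47% of all tested genes). Only FOSL2, JUNB and MYC passed with both hairpins in the same direction. The mean also averages the opposite movements of FOS and JUN, and the other members it called had passed with shAHR#2 only.

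**Figure D3:**
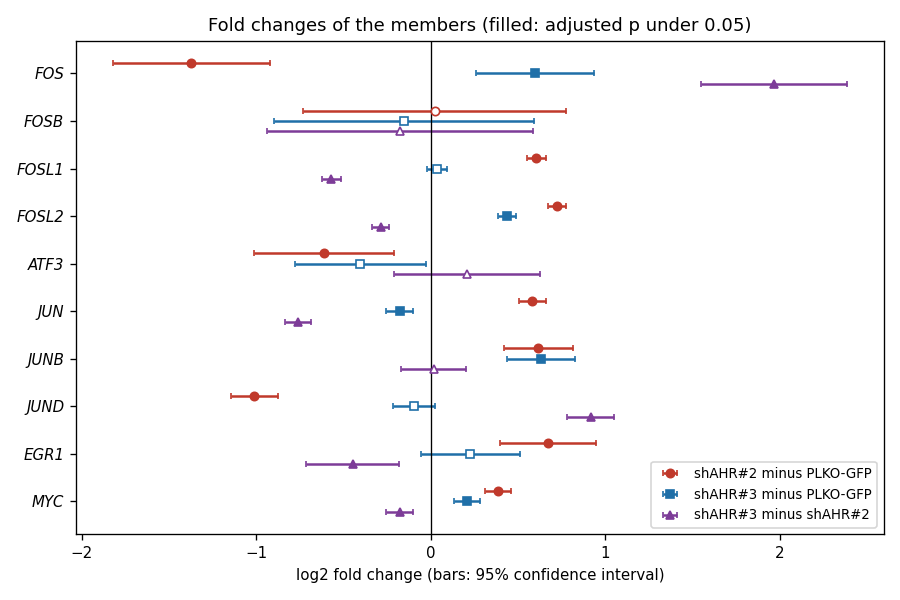
Log2 fold changes of the members (horizontal axis) with 95% confidence intervals for shAHR#2 minus PLKO-GFP (red), shAHR#3 minus PLKO-GFP (blue) and shAHR#3 minus shAHR#2 (purple), with filled symbols for an adjusted p under 0.05. FOS spans from -1.37 to 0.60 against the control, FOSL2, JUNB and MYC lie above 0 in both, and the FOSB intervals cross 0 in all 3 comparisons.

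Immediate early transcripts often carry AU-rich elements that shorten their half-life, and the members' 3′ untranslated regions were searched for the pentamer ATTTA. All 10 members held at least 1, against 74.3% of 12340 tested protein-coding genes. The nonamer TTATTTATT was found in 2 members, FOS and FOSL2 (9.76% of the same genes), and the median density was 2.09 pentamers per kilobase against 1.76. FOS was densest, with 5 in 806 bases, and EGR1 least dense, with 1 in 1222. These counts describe sequence only, and RNA stability was not measured.

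The other genes of the network were taken from lists written from general knowledge with earlier results of these data known. Each count against the control is read against the same background of 65.8% and 54.4%. Of 13 other bZIP partners, 11 were tested. With shAHR#2, 3 rose and 5 fell, and with shAHR#3, 4 rose and 2 fell, 6 in all, or 3 without PLKO-GFP replicate 3. ATF7, a CRE-binding partner of JUN, rose with both (log2 0.81 and 0.63), as did the small MAF protein gene MAFF (0.73 and 0.21). BATF2 rose with both as well (1.04 for the mean of both), on 7 to 14 counts in the control and 10 to 32 with the hairpins, and was named after its values were seen, since it lies below the expression minimum set for named genes, an average log2 CPM of 1. CREB5 fell with both (-1.07 and -1.68), and ATF2 slightly (-0.15 and -0.16). BATF differed between hairpins by 0.91 and JDP2, an inhibitor of AP-1, by 0.61, both higher with shAHR#3. BATF rests on 17 to 21 counts with shAHR#2 and 40 to 48 with shAHR#3. That minimum was not applied to genes named for a difference between hairpins.

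Among 26 other immediate early genes, 21 were tested. With shAHR#2, 9 rose and 6 fell (median 0.03), and with shAHR#3, 12 rose and 5 fell (median 0.25). TRIB1, a pseudokinase, rose with both (log2 1.64 and 1.37), as did the zinc-finger genes KLF4 (1.67 and 1.24) and KLF10 (0.64 and 0.57). The nuclear receptor gene NR4A1 also rose with both (1.29 and 1.39), on 6 to 13 counts in the control and 16 to 36 with the hairpins. It too lies below that minimum and was named after its values were seen. The kinase gene SGK1 fell with both (-0.79 and -0.74), as did IER5 (-0.89 and -0.47) and the matrix gene CCN1 (-0.74 and -0.25). NR4A2, a nuclear receptor, was higher with shAHR#3 than with shAHR#2 by 0.97, and BTG2 by 1.38 on at most 25 counts, while MCL1, an apoptosis inhibitor, was lower by -0.57. The 5 untested genes were EGR2, EGR3, EGR4 and NR4A3 at 0 to 10 counts and IER3, listed at 0 in every library.

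Of 32 genes for MAP kinases and the factors that carry their signal to immediate early promoters, 31 were tested. With shAHR#2, 13 rose and 12 fell, and with shAHR#3, 10 rose and 10 fell. The JUN N-terminal kinase genes MAPK8 and MAPK9 both fell with both hairpins (log2 -0.83 and -0.54 for MAPK8, -0.50 and -0.26 for MAPK9). MAPK13, a p38 kinase, rose (0.75 and 0.52), as did RPS6KA3 (0.81 and 0.45) and the p38 activator MAP2K6 (0.43 and 0.41). The p38 kinase genes did not move together. MAPK14 fell with both (-0.29 and -0.21), MAPK12 rose with both (0.26 and 0.26), and MAPK11 passed only with shAHR#3 (0.50). RPS6KA4 fell with both (-0.32 and -0.32), unlike RPS6KA3. MAPK14, MAPK12, MAPK11 and RPS6KA4 were named after their values were seen. MEF2D fell with both (-0.91 and -0.14). RPS6KA2 was higher with shAHR#3 than with shAHR#2 by 0.84, and ELK3 and MEF2C were lower by -0.48 and -0.50.

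Of 23 AP-1 target genes, 17 were tested, and with shAHR#2, 12 rose and 3 fell (median log2 fold change 0.42), while with shAHR#3, 8 rose and 4 fell (median 0.13). Between hairpins, 14 were lower and 1 higher with shAHR#3 (median -0.39), where 20.4% of all tested genes were lower and 21.9% higher. The interleukin gene CXCL8 rose most (log2 2.37 and 1.14), and PLAUR, the urokinase receptor, also rose with both (1.33 and 0.67). The collagenase gene MMP1 fell with both, from 7.97 CPM to 0.680 and 0.438 (log2 -3.58 and -4.17), on 4 to 16 counts in the hairpin libraries. CD44 fell (-0.23 and -0.49), as did HMGA1 (-0.07 and -0.46). IL6 rose with shAHR#3 (1.06) but did not pass the test with shAHR#2 (0.09), a difference of 0.97 between hairpins, and VEGFA was lower with shAHR#3 than with shAHR#2 by -0.77. The untested genes were MMP3, MMP9, MMP10, MMP13, SPP1 and CCL2, at 0 to 5 counts.

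Of 7 EGR1 corepressors and targets, 2 rose and 3 fell with each hairpin, with medians of -0.69 and -0.31. THBS1, encoding thrombospondin, fell (log2 -1.54 and -1.24), as did the tissue factor gene F3 (-1.12 and -0.67), while the corepressor NAB1 rose (0.41 and 0.29). PDGFA was higher with shAHR#3 than with shAHR#2 by 0.40. Of 8 ATF3 stress partners, 7 were tested, with 1 higher and 2 lower with shAHR#2 and 3 higher and 2 lower with shAHR#3. The latter 5 became 2 without PLKO-GFP replicate 1, 3 without PLKO-GFP replicate 3, 1 without shAHR#3 replicate 2 and 3 without shAHR#3 replicate 3. CHAC1, an ATF4-responsive gene, rose with both (1.47 and 0.58) and TRIB3 fell (-0.72 and -0.22). CEBPB was higher with shAHR#3 than with shAHR#2 by 0.46. SESN2 was lower by -0.65, on 26 to 41 counts with shAHR#2 and 22 to 31 with shAHR#3.

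Of 11 MYC network partners, 10 were tested, and 5 rose and 1 fell with shAHR#2 and 3 rose and 1 fell with shAHR#3. MLX rose (log2 0.50 and 0.35), as did the MYC antagonists MNT (0.51 and 0.27) and MXD1 (0.22 and 0.36), and MXD3 fell (-1.03 and -0.44). MAX, the dimer partner, was lower with shAHR#3 than with shAHR#2 by -0.18, and FBXW7, which degrades MYC, was higher by 0.27. All 26 MYC target genes were tested, with 12 higher and 8 lower with shAHR#2 (median 0.04) and 10 higher and 11 lower with shAHR#3 (median -0.03). CCND2, a cyclin, rose from 0.990 CPM to 15.8 and 4.07 (log2 3.99 and 2.03), and the transferrin receptor gene TFRC (0.55 and 0.35) and MYBBP1A (0.44 and 0.18) also rose. NPM1 (-0.79 and -0.58), NOP56 (-0.34 and -0.28) and the polyamine enzyme gene ODC1 (-0.16 and -0.48) fell. RRS1 was lower with shAHR#3 than with shAHR#2 by -0.42.

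**Figure D4:**
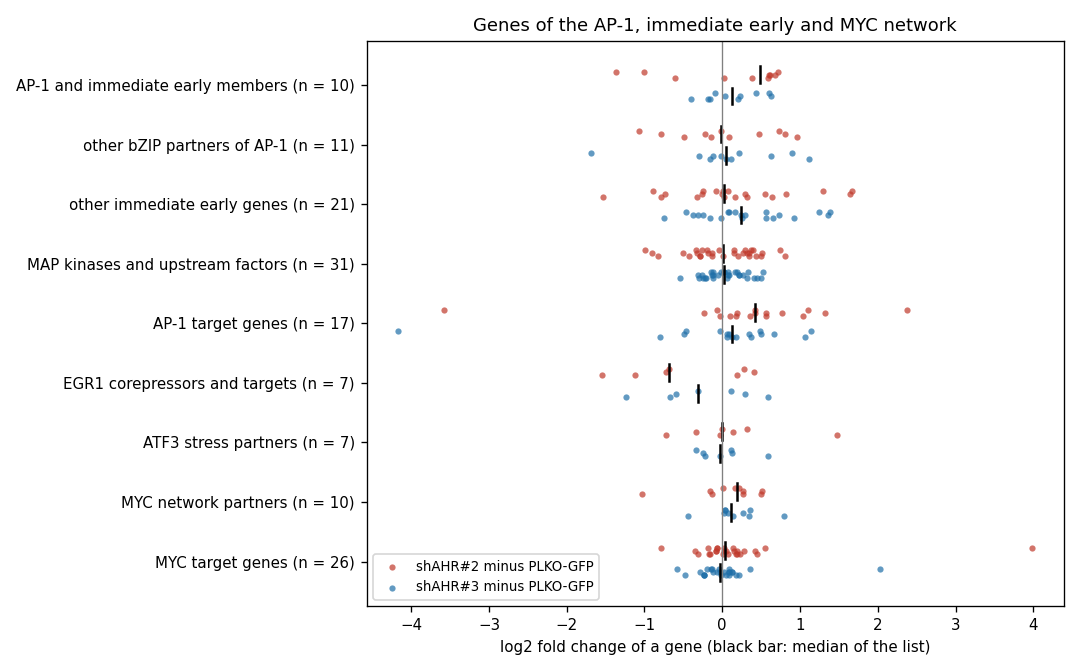
Log2 fold changes (horizontal axis) of the tested genes of the members and of 8 lists, for shAHR#2 (red) and shAHR#3 (blue) minus PLKO-GFP, with the median of each list as a black bar. The red median of the AP-1 target genes lies at 0.42 and that of the EGR1 list at -0.69, while the medians of the MAP kinase and MYC target lists lie near 0.

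The genes whose log2 CPM profile over the 9 libraries was closest to a member's, after centring each gene on its mean, were found by root mean square distance among 14273 genes. For FOSL1 they were TMEM71, ANTXR2 and CDCP1 (0.03 to 0.04, against a median of 0.35 over all genes), and for MYC they were PFKP, LONP1 and RUSC1 (0.02 to 0.03, against 0.27). For JUN they were SDC4, ZFP36L1 and FNDC3A (0.04 to 0.06, against 0.39). For FOS they were BMF, NEDD9 and FLG (0.15 to 0.18, against 0.83), for EGR1 EML6, TTC9C and FLG-AS1 (0.07 to 0.08, against 0.37), and for ATF3 ALKBH2, DSTYK and WDR70 (0.09 to 0.10, against 0.36). NEDD9, a scaffold of focal adhesions, was at 12.8, 5.11 and 21.7 CPM in the control, shAHR#2 and shAHR#3 groups, the same order as FOS. These genes were picked as the closest over the same libraries. Their small distances and shared order thus follow from the choice and are not a separate result.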

How the data were processed

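RNA of 9 MDA-MB-231 libraries was made with a stranded mRNA kit; the authors deposited, for each gene, the whole-number count of its reads, not normalized. The submitters' processing notes name FastQC, STAR, featureCounts from Subread and GRCh38.p13; versions and the strand setting are not given in the sources used here. The counts were analysed in R 4.3.3 with edgeR 4.0.16: genes kept by filterByExpr (minimum count 10, minimum total 15), TMM scaling, and 1 quasi-likelihood fit of 9 libraries with a mean per group, no block, and Benjamini-Hochberg adjustment over 14274 genes at 0.05. Standard errors and 95% intervals come from the same fit. DESeq2 1.42.0 was an alternative. Gene positions, lengths and 3′ untranslated regions came from GENCODE release 44, in which 60463 of 60605 gene identifiers were found; its release may differ from the authors'. Named genes were all members, up to 3 rising and 3 falling genes of each list called with both hairpins (minimum average log2 CPM 1), up to 2 in each direction between hairpins, and the 3 nearest profiles of 6 members. Members and lists were chosen with earlier results of these data known. The fit was tested on simulated data. Deviations correlated at 0.00314 to 0.0578 for 9 same-numbered pairs of libraries and at -0.068 to 0.0234 for 18 differently numbered pairs. None passed 0.1, the threshold set for pairing, so any link by replicate number was weak. Libraries of 1 group differed beyond counting noise (chi-square per degree of freedom 1.75 to 4.15). Total counts were 15991396 to 20374460 per library, and FOSB rests on 10 to 19 counts. Values of a few genes on the lists are not reported here.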

Additional observations from a re-analysis of the deposited data

Results flagged for a closer look

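Results are given here because the hairpins moved 2 members in opposite directions against the same control and also differed in the direct test. That test was part of the choice and shares its libraries with the other comparisons, so it is not a separate result. FOS was lower with shAHR#2 and higher with shAHR#3, and the direct difference, shAHR#3 minus shAHR#2, was 1.97 on the log2 scale (edgeR adjusted p = 4.27e-10), on 18 to 115 counts. JUN was higher with shAHR#2 and lower with shAHR#3, with a direct difference of -0.76 (edgeR adjusted p = 3.05e-19), on 1516 to 2471 counts. Each difference kept its direction and call without any single library. AHR was at 35.3% and 40.5% of the control in these groups, and its part in the difference was not tested.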

How the results depend on the processing

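The alternatives were DESeq2, DESeq2 size factors, upper quartile scaling, no filter, a mean of at least 50 counts, a block for the replicate number, a fit of only the compared groups, an adjusted p of 0.01, a log2 fold change of at least 1, and leaving out each library. Of 626 refitted fold changes of members, 612 kept direction and call, 8 lost the call, all for FOS with the mean of both hairpins, and 6 changed sign. The sign changes were in values that did not pass: leaving out single libraries, FOSB ranged from -0.20 to 0.24 with shAHR#2, from -0.37 to 0.065 with shAHR#3 and from -0.29 to 0.15 for the mean of both, and JUNB between hairpins from -0.038 to 0.048. With a log2 fold change of at least 1, 2 members passed with shAHR#2, 0 with shAHR#3, 0 for the mean of both and 1 between hairpins, against 1691, 961, 1177 and 530 of all genes. In the same 4 comparisons, that threshold left 1, 2, 2 and 0 of the bZIP partners, 4, 3, 3 and 1 of the other immediate early genes, 0, 0, 0 and 0 of the MAP kinase list, 5, 3, 2 and 1 of the AP-1 targets, 2, 1, 1 and 0 of the EGR1 list, 1, 0, 1 and 0 of the ATF3 list, 1, 0, 0 and 0 of the MYC partners and 1, 1, 1 and 1 of the MYC targets. Leaving out single libraries gave 9 members for shAHR#2, 5 for shAHR#3, 8 to 9 for the mean of both and 7 between hairpins, and with shAHR#3 it gave 3 to 6 bZIP partners and 1 to 5 ATF3 partners, of which an adjusted p of 0.01 kept 1. The replicate number as a block gave 9, 5, 9 and 7 members called and changed no member's call. Only the groups compared could not be applied to the mean of both. Scalings moved the median of all genes by at most 0.0139 log2. With the longest transcript as length, FOSL1 made 75.0%, 74.0% and 69.5% of the FOS family in the control, shAHR#2 and shAHR#3 groups, FOSL2 24.1%, 25.7% and 29.4%, JUN 50.02%, 68.9% and 45.9% of the JUN family, JUND 41.2%, 18.7% and 39.96%, and JUNB 12.4% and 14.2% with the hairpins. Control levels per kilobase then were 1.58 for FOS, 0.198 for FOSB, 148 for FOSL1, 47.6 for FOSL2, 27.2 for JUN, 1.69 for ATF3 and 32.6 for MYC. Depth limits FOSB, FOS and ATF3 most.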
